A study of Mus musculus with 2 samples.

Results

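The genes described here build and organise glutamate receptors: the AMPA, kainate, NMDA and delta subunits, the metabotropic receptors other than Grm6, the TARP and Neto auxiliary subunits, and the scaffolds that hold receptors in the postsynaptic membrane. They were chosen by symbol, and all 48 were found among the 32813 gene symbols of the table. The values come from 2 RNA-seq libraries of mouse cells, replicate 1 and replicate 2, which form a single group: cells labelled as type 5 bipolar cells, taken from dissociated retinas of the Htr3a-GFP line by fluorescence sorting. In this line a green fluorescent protein reports an active Htr3a promoter, so the sort depends on that promoter and not on a type 5 gene of another kind. Both libraries carry the reporter and neither was treated. The sources used here do not give strain background, age, sex or the number of animals per library. The series holds no comparison population, so every value is a level in the sorted cells and not an enrichment over retina.

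Bipolar cells receive glutamate from photoreceptors and pass the signal to amacrine and ganglion cells. OFF bipolar cells read photoreceptor glutamate with AMPA and kainate receptors, which are ion channels of 4 subunits that open on binding glutamate. ON bipolar cells, among them type 5, read it with the metabotropic receptor encoded by Grm6, which closes a cation channel through a G protein. Ionotropic receptors at conventional synapses are trafficked by auxiliary subunits and are anchored by scaffold proteins of the postsynaptic density.

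Levels are in TPM, a unit scaled for transcript length and for the library's total, which keeps no read depth, so no counting interval can be given. A value of 0 is given as listed, because Rps27, a ribosomal protein gene used by every cell, was at 838 TPM in replicate 2 but listed at 0 in replicate 1. Mitochondrially encoded RNA made up 17.3% (replicate 1) and 24.6% (replicate 2) of all TPM. Of 7 type 5 genes, 5 were above 1 TPM and above 10 TPM (limma, one-sided, Benjamini-Hochberg adjusted over all genes), with Kcng4 the most abundant at 277 ± 68.7 TPM (SD, n = 2). Htr3a, whose promoter the sort depended on, was 1 of these 5, so its level is no separate evidence of type 5 identity. Chrm2, at 0.08 and 1.15 TPM in replicates 1 and 2, and Slitrk5, at 0.55 and 2.15 TPM, did not pass. Of 9 ON bipolar genes all 9 were above both lines, led by Gng13 at 1096 TPM in replicate 1 and 955 TPM in replicate 2, whereas 0 of 8 OFF bipolar and 0 of 4 rod bipolar genes were above 1 TPM. At an unadjusted p under 0.05 limma called 1 OFF gene, Cdh8 at 5.34 ± 0.50 TPM, and 1 rod bipolar gene, Prkca at 5.7 ± 2.26 TPM (SD, n = 2), and without the variance trend 1 and 3 genes. Some genes of other retinal cells also passed: 9 of 11 rod genes were above 1 TPM (81.8%), led by Gngt1 at 802 ± 230 TPM. So were 2 of 9 cone genes (22.2%), 6 of 10 Muller glia genes (60.0%), 3 of 10 amacrine genes (30.0%) and 1 of 8 ganglion cell genes (12.5%). Of all genes tested 55.5% were above 1 TPM, and of the protein-coding ones 61.5%, so only the rod share lay over both. The highest genes of the cone, Muller glia, amacrine and ganglion cell lists were Gnat2 (54.6 ± 44.4 TPM), Glul (99.8 ± 34.0 TPM), Pax6 (34.4 ± 17.1 TPM) and Thy1 (46.1 ± 25.1 TPM; SD, n = 2 each). Nefm, Pou4f2 and Sncg of ganglion cells were listed at 0 in both libraries. None of 3 horizontal, 5 microglia and 3 endothelial genes was above 1 TPM by this test, with 0 also at an unadjusted p under 0.05 and without the variance trend, and C1qa and Cldn5 among them were listed at 0 in both. Their highest genes were unequal between replicate 1 and replicate 2. Calb1 of horizontal cells had 0.51 and 9.28 TPM, and Aif1 of microglia a listed 0 and 12.95 TPM. Pecam1 of endothelial cells had 1.8 and 1.2 TPM.

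Of the 48 genes, 45 were above 0 in either library and entered the test, and 21 of these were above 1 TPM (limma, one-sided, adjusted p under 0.05), or 46.7%. The same call was made for 55.5% of all 19968 genes tested and for 61.5% of the protein-coding ones, the class to which all 48 genes belong in GENCODE M21. Above 10 TPM stood 15 genes, 33.3% of the 45, against 32.4% of all genes tested and 37.8% of the protein-coding ones. On the log2(TPM + 1) scale the 45 genes had a median level of 2.63 and all genes tested one of 3.22. Both shares lay near or under those of all genes. The levels differed by role. Of 17 scaffold genes 11 were above 1 TPM (64.7%) and 9 above 10 TPM (52.9%). Of 23 receptor genes these were 8 (34.8%) and 5 (21.7%), and of 8 auxiliary genes 2 (25.0%) and 1 (12.5%). The scaffold share above 1 TPM was thus near the 61.5% of protein-coding genes, and above 10 TPM it was over their 37.8%. Receptor and auxiliary shares, which count genes listed at 0 in both libraries, were under both. The median level was 4.67 for the 17 scaffolds, 1.51 for the 21 receptor genes above 0 in either library and 1.81 for the 7 such auxiliary genes. The limma fit took each gene's variance from the trend with abundance, so a gene's own disagreement between libraries did not enter its call. Without a test, 37 of the genes reached 1 TPM when replicate 1 was left out (74.5% of all genes did) and 32 when replicate 2 was (77.7% of all genes). In both libraries 31 genes reached 1 TPM, as did 67.6% of all genes tested, and 15 reached 10 TPM, as did 41.3%.

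**Figure D1:**
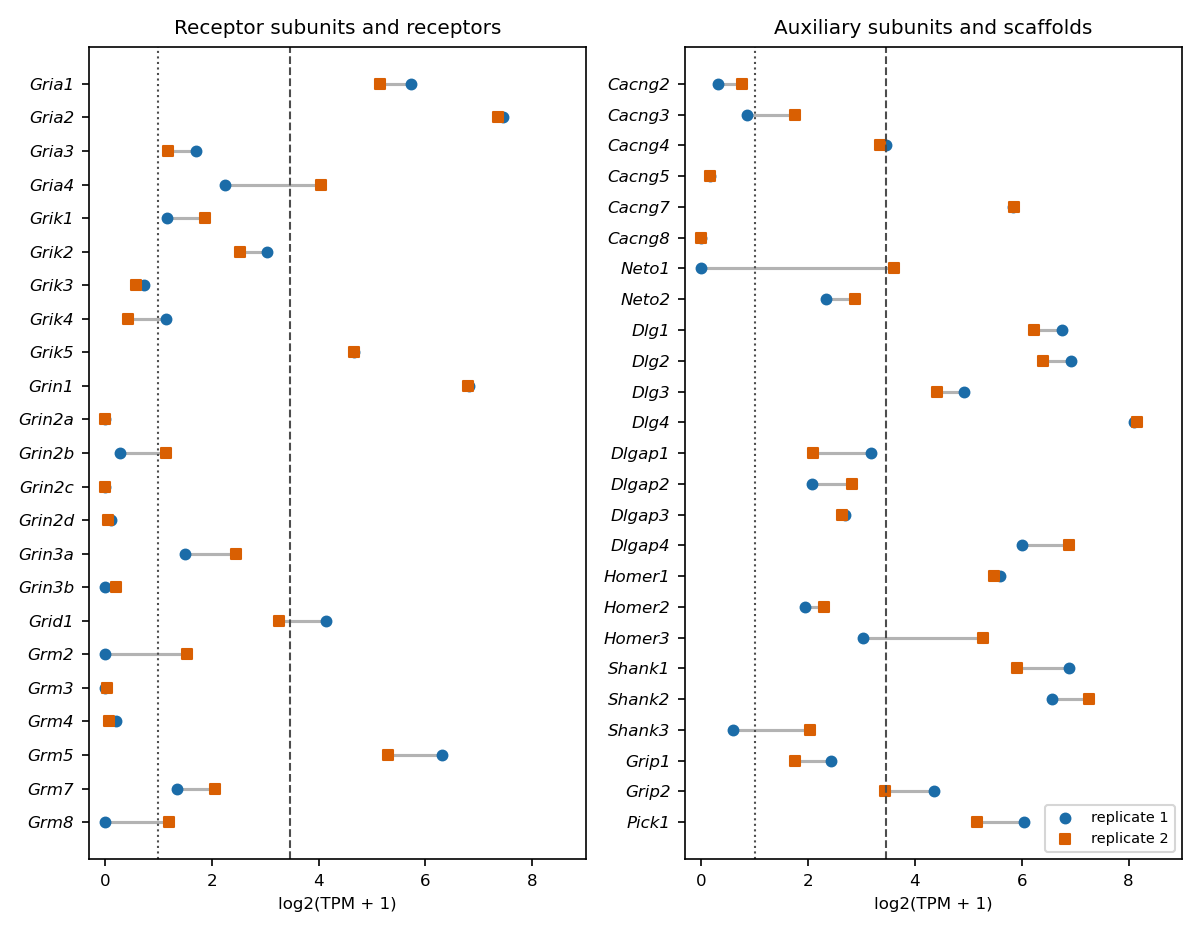
Level of each of the 48 genes on the log2(TPM + 1) scale in replicate 1 (blue circles) and replicate 2 (orange squares), joined by a grey line, for receptors (left) and for auxiliary subunits and scaffolds (right). The dotted line marks 1 TPM and the dashed line 10 TPM; the longest grey line belongs to Neto1, with 11.24 TPM in replicate 2 and a listed 0 in replicate 1.

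The AMPA receptor pool was dominated by Gria2, the subunit that makes the channel nearly impermeable to calcium once its RNA is edited. Gria2 had 174.9 TPM in replicate 1 and 163.48 TPM in replicate 2, a mean of 169 ± 8.08 TPM (SD, n = 2) and rank 844 of all symbols. Gria1, a subunit known for its part in synaptic plasticity, had 52.25 and 34.38 TPM. Gria2 therefore exceeded Gria1 3.35-fold in replicate 1 and 4.76-fold in replicate 2. Gria4, the subunit of fast-gating receptors, had 3.73 and 15.42 TPM, and Gria3 had 2.28 and 1.26 TPM. Gria2 took 75.0% of the summed TPM of the 4 AMPA genes in replicate 1 and 76.2% in replicate 2, an average of 75.6% ± 0.84 (SD, n = 2). The order Gria2 over Gria1 over the other subunits was the same in both libraries, whereas Gria3 and Gria4 lay close together in replicate 1 and far apart in replicate 2. Gria1, Gria2 and Gria4 were above 1 TPM by the test, and Gria1 and Gria2 above 10 TPM.

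The feature that sets Gria2 apart is a single codon in the pore loop, known as the Q/R site, which is edited in the RNA from glutamine to arginine. The coding sequences around that codon are shown because the genome encodes glutamine there in every AMPA subunit, so the edit cannot be read from a gene's TPM. They are 51 bases long, come from the principal transcripts of GENCODE M21 on GRCm38 and have the Q/R codon in capitals:
Gria1: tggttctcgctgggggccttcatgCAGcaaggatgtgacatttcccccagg
Gria2: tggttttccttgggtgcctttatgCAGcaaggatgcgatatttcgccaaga
Gria3: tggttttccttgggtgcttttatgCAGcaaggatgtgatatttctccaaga
Gria4: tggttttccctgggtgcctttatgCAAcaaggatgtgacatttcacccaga
The codon is number 607 of 883 in Gria2, at 80706911 to 80706913 of chromosome 3 (minus strand), in a coding exon that ends within the window shown. It is on chromosome 11 from 57243094 to 57243096 (plus strand) in Gria1, on chromosome X from 41610265 to 41610267 (plus strand) in Gria3 and on chromosome 9 from 4464137 to 4464139 (minus strand) in Gria4. Over these 51 bases Gria3 differs from Gria2 at 3 positions, Gria4 at 6 and Gria1 at 10. All 3 genes of the editing enzyme family were above 1 TPM. Adarb1, which encodes the deaminase that edits the Q/R site, had 25.79 and 30.29 TPM. Adar had 37.24 and 7.58 TPM, and Adarb2, a member without known editing activity, had 26.07 and 3.53 TPM, both far lower in replicate 2.

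Kainate receptor RNA was mainly Grik5, a high-affinity subunit that forms channels only together with Grik1, Grik2 or Grik3. Grik5 had 24.25 TPM in replicate 1 and 24.5 TPM in replicate 2 and was the only kainate gene above 10 TPM. Its partners were lower. Grik2 had 7.16 and 4.79 TPM and was above 1 TPM by the test. Grik1, the kainate subunit gene known from OFF bipolar cells, had 1.23 and 2.65 TPM, Grik3 had 0.67 and 0.50 TPM, and none of these passed. Grik4, the other high-affinity subunit, had 1.21 and 0.35 TPM. Grik5 took 70.2% of the summed TPM of the 5 genes in replicate 1 and 74.7% in replicate 2, and exceeded Grik2 3.39-fold and 5.11-fold. Grik5 and Grik2 carry a codon for glutamine at the same place of the pore, shown in capitals for comparison with the AMPA genes:
Grik2: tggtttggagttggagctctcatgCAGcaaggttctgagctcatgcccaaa
Grik5: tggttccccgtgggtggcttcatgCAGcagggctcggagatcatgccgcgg
They differ from Gria2 over the window at 19 bases (Grik2) and 16 bases (Grik5). In these genes the codon is on chromosome 10 from 49244329 to 49244331 and on chromosome 7 from 25022497 to 25022499, both on the minus strand.

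NMDA receptors are built from the obligatory subunit encoded by Grin1 and, in most neurons, a glutamate-binding Grin2 subunit. Grin1 had 112.08 TPM in replicate 1 and 110.23 TPM in replicate 2, a mean of 111 ± 1.31 TPM (SD, n = 2), whereas the Grin2 genes were near 0. Grin2b had 0.22 and 1.2 TPM and Grin2d had 0.08 and 0.04 TPM, while Grin2a and Grin2c were listed at 0 in both libraries. The 4 Grin2 genes summed to 0.30 TPM in replicate 1 and 1.24 TPM in replicate 2, so that Grin1 exceeded their sum 374-fold and 88.9-fold. Of the glycine-binding Grin3 subunits, Grin3a had 1.83 and 4.45 TPM, and Grin3b had 0.15 TPM in replicate 2 and a listed 0 in replicate 1. Grin1 was the 1 of 7 NMDA genes above 1 TPM by the test and took 98.14% and 94.97% of their summed TPM. Grin1 stood over every Grin2 and Grin3 gene in both libraries. GENCODE M21 places Grin1 on the minus strand of chromosome 2, from 25291181 to 25319187, and 13.5% of its exon bases are shared with the antisense gene Grin1os. The sources used here do not say whether strand was used in counting, so reads of such antisense partners may not be told apart. Grid1, a delta subunit that binds extracellular organisers of synapses rather than acting as an ordinary glutamate-gated channel, had 16.63 and 8.64 TPM and was above 1 TPM.

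**Figure D2:**
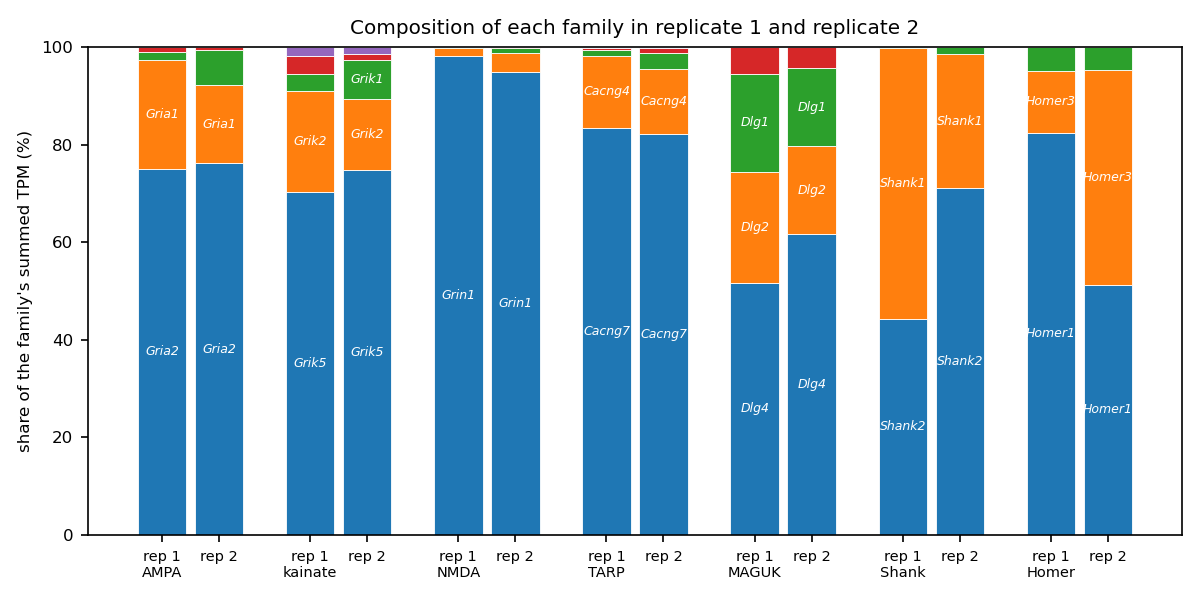
Share of each family's summed TPM taken by each of its genes, in percent, in replicate 1 (left bar of each pair) and replicate 2 (right bar), with slices stacked in the order of mean share and small slices left without a name. Gria2, Grik5, Grin1 and Cacng7 took over 70% of their family in both libraries, whereas the larger slice of the Shank family was Shank1 in replicate 1 and Shank2 in replicate 2.

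Among the metabotropic receptors Grm5 stood alone. It encodes a receptor that couples to phospholipase C and had 78.31 TPM in replicate 1 and 38.3 TPM in replicate 2, with 97.9% and 85.6% of the summed TPM of the 6 genes. It was the only one of the 6 above 1 TPM by the test, and the libraries differed 2.04-fold. For scale, Grm6, which is not one of the 48 genes, exceeded Grm5 6.87-fold in replicate 1 and 23.9-fold in replicate 2. Among the 48 genes, the metabotropic receptors that couple to inhibitory G proteins were low. Grm7, a receptor of presynaptic terminals, had 1.55 and 3.18 TPM and Grm4 had 0.15 and 0.05 TPM. Grm8 had 1.3 TPM, Grm2 1.9 TPM and Grm3 0.03 TPM in replicate 2, and replicate 1 listed all 3 at 0.

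TARPs are transmembrane partners that traffic AMPA receptors and change their gating. The TARP gene of highest level was Cacng7, with 55.87 TPM in replicate 1 and 57.15 TPM in replicate 2, a mean of 56.5 ± 0.91 TPM (SD, n = 2). Cacng4 followed with 9.97 and 9.18 TPM. Together they were the 2 of 6 TARP genes above 1 TPM, and Cacng7 alone took 83.4% and 82.2% of the TARP sum. Cacng2, which encodes stargazin, the first TARP described, had 0.25 and 0.69 TPM, Cacng3 had 0.80 and 2.37 TPM, and Cacng5, the closest relative of Cacng7, had 0.12 TPM in each library. Cacng8 was listed at 0 in both. The 6 genes summed to 67.0 TPM in replicate 1 and 69.5 TPM in replicate 2. Of the Neto genes, whose products modify kainate receptors, Neto2 had 4.02 and 6.37 TPM, and Neto1 had 11.24 TPM in replicate 2 against a listed 0 in replicate 1. Neither was above 1 TPM by the limma test at its main settings, although Neto2 was at an unadjusted p under 0.05. In other fits Neto2 passed with a pseudocount of 0.1, with low genes filtered out and without the variance trend. It also passed after rescaling without mitochondrial genome genes, but not with a pseudocount of 0.5 or with median centring.

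Scaffold genes had a summed level of 969 TPM in replicate 1 and 942 TPM in replicate 2, against 479 and 417 TPM for the 23 receptor genes. Single receptor genes were nevertheless high, with Gria2 and Grin1 at means of 169 and 111 TPM, and only Dlg4 averaged more than Gria2. Dlg4, which encodes the scaffold PSD-95, had 274.41 TPM in replicate 1 and 285.55 TPM in replicate 2 and was the highest of all 48 genes, at rank 412 of all symbols. Its protein is known in retina from photoreceptor terminals, and rod genes were present in these libraries, with summed levels of 1649 and 1697 TPM over 11 genes and no rod gene at 0. The part of rod RNA in the Dlg4 level was not tested. The other members of the family of membrane-associated guanylate kinases were Dlg2 at 120.68 and 83.77 TPM, Dlg1 at 106.39 and 73.88 TPM and Dlg3 at 29.43 and 20.18 TPM. All 4 were above 10 TPM. Dlg1, Dlg2 and Dlg3 were each higher in replicate 1, by log2 differences of 0.52 for all 3, and the ratio of Dlg2 to Dlg1 was 1.13 in both libraries. Dlg4 took 51.7% and 61.6% of the sum of the 4 genes.

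Dlgap genes encode proteins that link these kinases to Shank, the next layer of the postsynaptic density. Dlgap4 had 63.26 TPM in replicate 1 and 117.62 TPM in replicate 2. It was the only one of 4 above 1 TPM by the test at its main settings. Dlgap1 had 8.0 and 3.26 TPM, Dlgap3 had 5.48 and 5.25 TPM, and Dlgap2 had 3.21 and 6.06 TPM. Both libraries held all 4 at 1 TPM or more. In other fits Dlgap1 and Dlgap3 passed too, with a pseudocount of 0.5 or 0.1 and after rescaling without mitochondrial genome genes. They also passed without the variance trend and with low genes filtered out, but not with median centring. Dlgap2 passed with a pseudocount of 0.1, with that filter and without the trend, but in none of the other fits. Shank2 had 94.29 and 152.59 TPM and Shank1 had 117.82 and 59.07 TPM, so Shank1 was 1.25 times Shank2 in replicate 1 and 0.39 times in replicate 2. The order of Shank1 and Shank2 thus differed between the libraries, although both were above 10 TPM and their family sum was close, at 213 and 215 TPM. Shank3 had 0.52 and 3.11 TPM and was not above 1 TPM.

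Homer proteins tie metabotropic receptors of the Grm5 kind to Shank and to calcium stores. Homer1 had 47.25 TPM in replicate 1 and 43.72 TPM in replicate 2. Homer3 had 7.20 and 37.59 TPM and Homer2 had 2.85 and 3.94 TPM. Homer1 exceeded Homer3 6.56-fold in replicate 1 and 1.16-fold in replicate 2, so the share of Homer1 in the family was 82.5% and 51.3%. By the limma test Homer1 was above 10 TPM and Homer3 above 1 TPM, while Homer2 passed neither line, although it exceeded 1 TPM in both libraries. Pick1, which encodes a protein that binds the tail of the Gria2 product and takes part in receptor internalisation, had 64.86 and 34.71 TPM. Grip2 and Grip1, whose products bind the same tail, had 19.37 and 9.81 TPM and 4.36 and 2.36 TPM. All 3 were higher in replicate 1, by log2 differences between 0.67 and 0.91, and their shares of the summed level were nearly the same in both libraries, with Pick1 at 73.2% and 74.0%. In GENCODE M21 Pick1 shares 18.6% of its exon bases with the protein-coding gene Gm49486 on the same strand, which has no TPM value here. The part of such shared bases in the Pick1 level was not tested.

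The spread between the libraries depended on the level. Of the 5 genes that averaged 100 to 1000 TPM, namely Dlg4, Gria2, Shank2, Grin1 and Dlg2, all 5 lay within 2-fold, as did 90.8% of all genes at that level. Of 13 genes at 10 to 100 TPM 11 lay within 2-fold (84.6%, against 72.1% of all genes) and of 16 at 1 to 10 TPM 12 did (75.0%, against 47.6%). These folds are on the log2(TPM + 1) scale, which understates the change of low genes. Among the 34 genes whose mean reached 1 TPM, 2 differed over 4-fold, Neto1 and Homer3, while 13.1% of all genes with such a mean did. Both were higher in replicate 2, with log2 differences (replicate 1 minus replicate 2) of -3.61 for Neto1 and -2.23 for Homer3. Gria4 and Shank3 followed with -1.80 and -1.44, and passed 4-fold with a pseudocount of 0.1, which gave 4 genes and 19.2% of all genes. With a pseudocount of 1 and a minimum mean of 10 TPM the count was 1 of 18, Homer3, and 6.45% of all genes with such a mean. Of the 48 genes, 22 were higher in replicate 1, 22 in replicate 2 and 4 equal, of which 3 were listed at 0 in both.

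Markers of other cell types also moved between the libraries. Of 10 amacrine genes 3 reached 1 TPM in replicate 1 and 8 did so in replicate 2, with sums of 73.6 and 97.8 TPM. Gad1 had 0.06 and 10.4 TPM and Gad2 had 0.11 and 9.94 TPM, while the glycine transporter Slc6a9 went the other way at 36.6 and 3.12 TPM, and Calb2 and Chat stood at a listed 0 throughout. The 10 Muller glia genes summed to 193 and 409 TPM and the 9 cone genes to 194 and 46.9 TPM. The 8 OFF bipolar genes summed to 9.88 and 18.5 TPM and the 4 rod bipolar genes to 9.29 and 22.3 TPM. None of the genes of these lists was at 0 in both libraries. The Muller glia genes were uneven. Vim had 0.20 and 118.83 TPM and Glul 75.8 and 124 TPM. Clu, at 85.7 and 79.5 TPM, and Kcnj10, at 1.43 and 0.56 TPM, were lower in replicate 2. The 5 glutamate receptor genes listed at 0 in 1 library, Neto1, Grm2, Grm3, Grm8 and Grin3b, were all at 0 in replicate 1. Over all symbols 1993 were at 0 in replicate 1 only and 1938 in replicate 2 only. Of the cell type markers Lhx3, Syt2, Sebox, Slc32a1, Pou4f1 and Aif1 were at 0 in replicate 1 only, and Pde6c and Slc17a6 in replicate 2 only. The part of these cell types in Neto1, Homer3, Gria4, Shank3 and the 5 genes listed at 0 was not tested. In bulk RNA, fewer cells of a type and less RNA per cell cannot be told apart. Homer3 lies on chromosome 8 from 70282827 to 70294361 and shares 25.4% of its exon bases with Ddx49 on the opposite strand, which had 13.3 TPM in replicate 1 and 23.0 TPM in replicate 2. Grin3b shares 32.1% of its exon bases with Tmem259, which had 11.3 and 14.9 TPM.

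**Figure D3:**
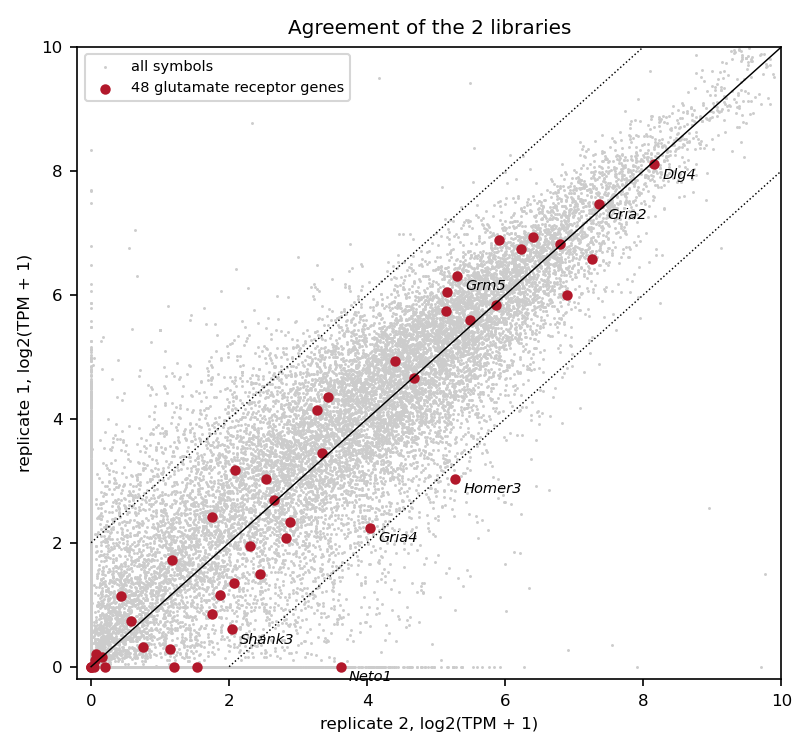
Level in replicate 1 (vertical axis) against replicate 2 (horizontal axis), both as log2(TPM + 1), for all symbols up to 10 on each axis (grey) and for the 48 genes (red). The solid line marks equal levels and the dotted lines a 4-fold difference on this scale; Neto1 and Homer3 lie beyond the lower dotted line.

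Genes that act with glutamate receptors but are not among the 48 were examined as 4 lists. Of 14 AMPA receptor auxiliary, assembly and related genes 8 were above 1 TPM (57.1%) and 7 above 10 TPM. Their highest members were Nsf, an ATPase of vesicle fusion that binds the Gria2 product, at 258 and 230 TPM, Olfm1, which encodes a secreted protein found in AMPA receptor complexes, at 167 and 193 TPM, and Gsg1l, an auxiliary subunit, at 74.4 and 66.9 TPM. The assembly genes Frrs1l, Abhd6, Porcn and Cpt1c lay between 20.7 and 41.8 TPM in replicate 1 and between 21.3 and 36.3 TPM in replicate 2. Cnih2, a cornichon auxiliary gene, had 0.73 and 11.3 TPM, its relative Cnih3 was listed at 0 and at 0.13 TPM, and Olfm3 was listed at 0 in both libraries. As with the TARPs, a minority of the genes thus held most of the level. Of a list sum of 680 TPM in replicate 1 and 641 TPM in replicate 2, the largest parts were Nsf and Olfm1, neither described above as an auxiliary subunit gene.

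Of 19 signalling and adaptor genes 15 were above 1 TPM and 11 above 10 TPM. Lin7a, a scaffold gene of the complex with Cask, had 267 and 329 TPM, and Cask had 129 and 89.6 TPM. The calcium and calmodulin-dependent kinase genes were unequal, with Camk2b at 150 and 169 TPM and Camk2d at 185 and 124 TPM but Camk2a, the isoform known from excitatory neurons of the forebrain, at 0.42 and 0.35 TPM. Of 12 extracellular organisers of glutamate synapses 3 were above 1 TPM, and 1 of these above 10 TPM. Elfn2, whose product binds metabotropic receptors across the synapse, had 20.3 and 45.1 TPM, Nptxr, a pentraxin receptor gene, had 9.37 and 10.1 TPM, and Nptx1 had 10.9 and 7.61 TPM. In the 4 lists together 29 of 48 genes were above 1 TPM (60.4%) and 20 above 10 TPM (41.7%), shares near the 61.5% and 37.8% of all protein-coding genes tested.

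**Figure D4:**
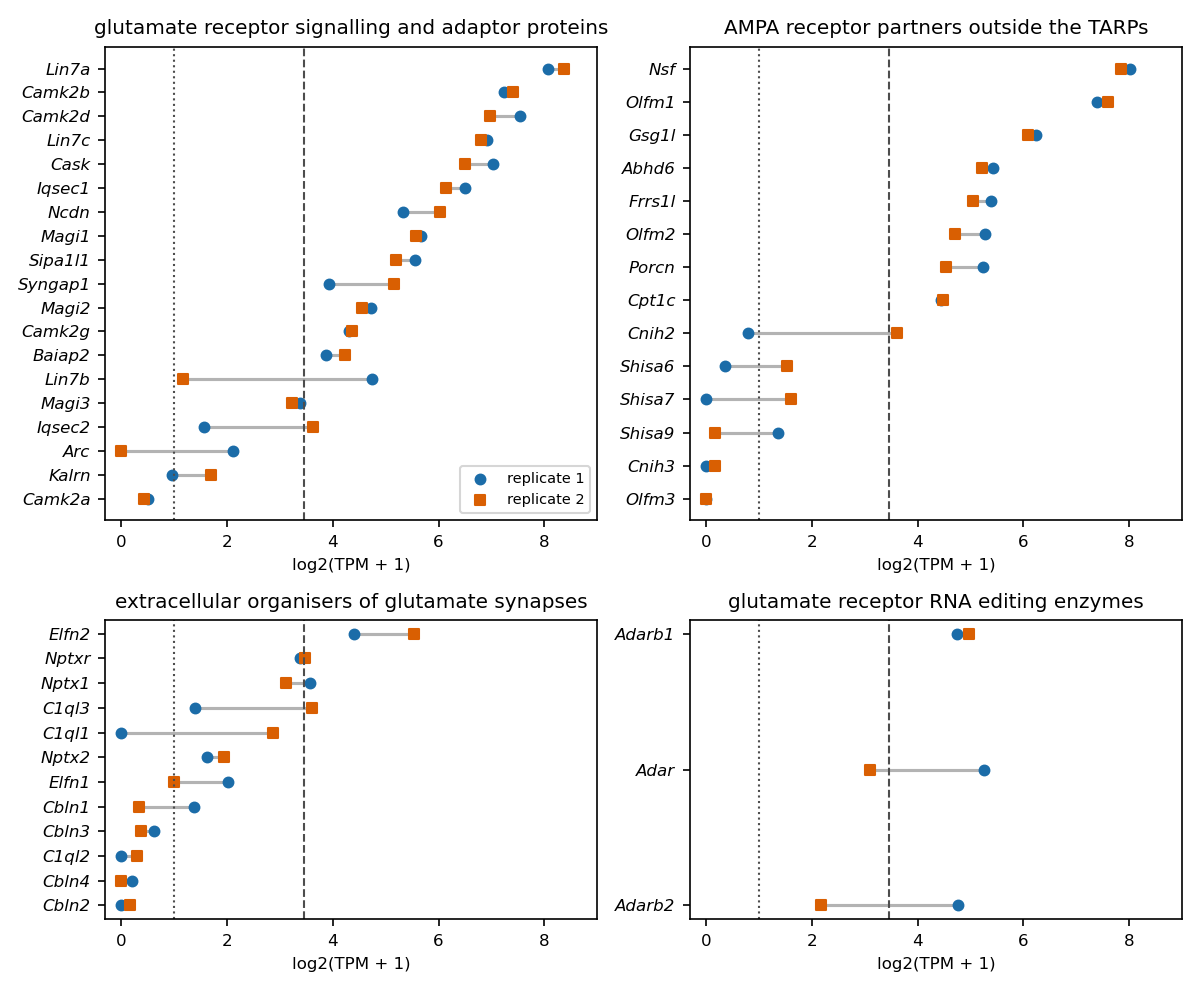
Level on the log2(TPM + 1) scale of 48 genes that act with glutamate receptors, in 4 panels by list, in replicate 1 (blue circles) and replicate 2 (orange squares), joined by a grey line and ordered by mean TPM, with 1 TPM dotted and 10 TPM dashed. Lin7a and Nsf were the highest, at 267 and 258 TPM in replicate 1, and Olfm3 was listed at 0 in both libraries.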

How the data were processed

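RNA of sorted type 5 bipolar cells was sequenced in 2 libraries of total RNA made with the NuGEN Ovation kit, per the labels' protocols. The authors deposited 1 table of TPM, a column per library. TopHat2 2.0.10, RSEM 1.2.28 and mm10 are named in the submitters' processing notes, without their roles. The sources used here do not give the annotation release or filters. The column of replicate 1 spells Htr3a with exchanged letters and was matched by replicate number. TPM keeps no depth, so the depth per library is unknown.

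Values were put on log2(TPM + 1). Levels above 1 and 10 TPM were tested with limma 3.58.1 (R 4.3.3), one-sided, intercept only, with a variance trend, Benjamini-Hochberg adjusted over the 19968 genes above 0 in either library, threshold 0.05; the test was checked on simulated data. The fit gave each gene 19968 total degrees of freedom, so gene p-values rest on the trend and are not printed. The libraries are biological replicates per the design text. Differences between them, shares and ratios have no test. Python 3.11.15, pandas 2.3.3, numpy 2.4.6 and matplotlib 3.10.9 were used, and GENCODE M21 on GRCm38 (also called mm10) for positions and sequences.

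The genes and lists were chosen with earlier results of these data known. All 48 genes were named; of each partner list the 3 highest members and those at 0 in both libraries. Other partner genes and single markers were chosen after their values were seen. Alternatives were 2 pseudocounts, filters on low values, no trend, 2 scalings, no test and leaving out each library.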

Additional observations from a re-analysis of the deposited data

How the results depend on the processing

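With the 7 fits by limma, genes above 1 TPM numbered 21 to 27 (55.5% to 73.9% of all genes) and above 10 TPM 14 to 15 (28.5% to 41.6%). With 1 library left out and no test, 32 to 37 genes were at or over 1 TPM (74.5% to 77.7% of all genes) and 17 to 18 at or over 10 TPM (46.5% to 49.8%). Without the variance trend Dlg3 was no longer above 10 TPM, while Homer2 and Grip1 were above 1 TPM in that limma fit only. The count over 4-fold between the libraries was 4 with a pseudocount of 0.1 (19.2% of all genes) and 1 with a minimum mean of 10 TPM (6.45%), against 2 (13.1%). The level of Neto1 over the 1 TPM line, 0.81 log2 units, was -0.05 with a pseudocount of 0.1, as its 0 in replicate 1 then weighs more. The level of Cacng4 relative to the 10 TPM line, -0.06 log2 units, was 0.25 after rescaling without mitochondrial genome genes, which raises every other TPM. Leaving out a library gave a share of Gria2 of 75.0% to 76.2%, of Grin1 of 94.97% to 98.14%, of Grik5 of 70.2% to 74.7% and of Dlg4 of 51.7% to 61.6%. No paired analysis was possible because the series has a single group. Without read depth, levels near 0 cannot be given a detection limit.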
